A study of Mus musculus with 5 samples.

Results

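Interferon-responsive epithelial cells are ileal epithelial cells that carry transcripts of several interferon-stimulated genes at once. They were taken here as kept cells with at least 3 of 7 such genes detected (Isg15, Ifit1, Ifit2, Ifit3, Rsad2, Oasl2 and Usp18) and fewer than 3 of 7 T cell and cytotoxic genes (Cd3e, Cd3g, Cd3d, Cd7, Gzma, Gzmb and Nkg7). The rule found 619 cells among 18955 kept cells, out of 19404 cell barcodes in all. They are compared below with 17829 other cells, the kept cells with fewer than 3 detected genes of both sets. The other 507 kept cells met the T cell limit and are called T cell droplets.

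The libraries are droplet single-cell RNA profiles of epithelial cells isolated from the ileum, the distal small intestine, of C57BL/6 mice aged 8 to 12 weeks. Sham surgery was the treatment of 3 libraries, and small bowel resection, which removes a length of small intestine, that of 2 libraries. The time after surgery, the length removed and the number of animals per library are not given in the sources used here. Nothing in the labels says that the libraries of a group came from separate animals, so each p-value below measures only the spread between these libraries, which may be technical. Members were chosen by their transcripts, so every difference between them and the other cells is a description and carries no test.

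Interferons are secreted signals that cells release on sensing foreign nucleic acid. Type I interferons act on nearly all cells through the receptor of Ifnar1 and Ifnar2, while type III interferons act mainly on epithelium through Ifnlr1 and Il10rb. Both activate the kinases Jak1 and Tyk2 and transcription factors such as Stat2 and Irf9, which act at the interferon-stimulated response element and turn on antiviral genes. Type II interferon acts through Ifngr1 and Ifngr2 and leads to a partly different set, with guanylate-binding proteins and antigen presentation.

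Of the rule genes, Isg15 encodes a ubiquitin-like modifier, Usp18 the protease that removes it and restrains receptor signalling, the Ifit genes encode proteins that bind viral RNA, Rsad2 encodes viperin and Oasl2 a relative of the oligoadenylate synthetases. The promoters of Isg15, Ifit1 and Rsad2 are shown because the response element can be read in them directly. The motif searched was GAAANNGAAA on both strands, where N is any base and matches may overlap, in the window from 250 bases before to 50 bases after each gene start in the RefSeq promoter table of GRCm38.p6. It was present in 1131 of 32851 promoters, 3.44%, and in any promoter of 1079 of 27025 genes, 3.99%. Of the 7 rule genes, 6 had a promoter in the table and 4 of these held the motif (Isg15, Ifit1, Ifit3 and Rsad2). Oasl2 and Ifit2 did not hold it, and Usp18 had no promoter there. The 150 bases before the start are printed 5′ to 3′ on the strand of the gene, with each match in capitals. Isg15 lies at chr4:156200819-156200968 on the minus strand, Ifit1 at chr19:34640739-34640888 on the plus strand, Rsad2 at chr12:26456453-26456602 on the minus strand, and Ddx60, added after its values were seen, at chr8:61927937-61928086 on the plus strand.
Isg15: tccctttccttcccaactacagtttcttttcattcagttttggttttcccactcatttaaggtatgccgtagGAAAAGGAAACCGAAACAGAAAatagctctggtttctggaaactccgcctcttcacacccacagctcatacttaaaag
Ifit1: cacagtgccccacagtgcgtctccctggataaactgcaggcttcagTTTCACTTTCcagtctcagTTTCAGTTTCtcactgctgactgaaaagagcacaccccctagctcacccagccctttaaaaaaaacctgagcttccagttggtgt
Rsad2: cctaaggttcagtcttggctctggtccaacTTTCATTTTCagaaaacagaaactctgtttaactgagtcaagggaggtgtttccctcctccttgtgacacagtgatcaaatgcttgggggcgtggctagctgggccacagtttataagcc
Ddx60: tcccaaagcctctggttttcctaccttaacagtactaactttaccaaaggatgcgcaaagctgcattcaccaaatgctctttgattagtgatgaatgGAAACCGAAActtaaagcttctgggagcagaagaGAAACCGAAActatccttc
The run of capitals in Isg15 holds 3 overlapping matches, Ifit1 and Ddx60 hold 2 separate matches each, and Rsad2 holds 1. A match is a description of these letters and not a measured binding site.

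Members numbered 64 in sham 1, 69 in sham 2, 129 in sham 3, 162 in resection 1 and 195 in resection 2. These were 4.94%, 1.76%, 4.53%, 4.27% and 2.74% of the kept cells. The exact (Clopper-Pearson) 95% intervals, which cover counting error only, were 3.82% to 6.26%, 1.37% to 2.23%, 3.80% to 5.36%, 3.65% to 4.97% and 2.38% to 3.15%. The lowest and the highest share were both sham libraries, and both resection libraries lay between them. Sham libraries averaged 3.74% ± 1.73 (SD, n = 3), and resection libraries 3.51% ± 1.08 (SD, n = 2), a difference of -0.24 percentage points. That difference was smaller than the spread between sham libraries (exact two-sided permutation test, p = 0.9, where the 10 ways to choose 2 of 5 libraries allow no p under 0.1).

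Detecting 3 genes in a cell depends on its depth. The median cell held 5409, 5012, 8426, 5771.5 and 5028 UMIs (unique molecular identifiers, each counted as 1 captured transcript) among members of sham 1 to 3 and resection 1 and 2, and 5436.5, 4580.5, 6197.5, 5508.5 and 4617 among other cells. The gap was widest in sham 3. When every kept cell was thinned to 2000 UMIs, which left no cell out, and the rule applied again, the shares averaged over 100 draws fell to 1.36%, 0.677%, 1.16%, 1.13% and 0.788%. The order of the libraries was kept, and the difference between resection and sham was -0.11 percentage points (exact permutation test, p = 0.7).

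**Figure D1:**
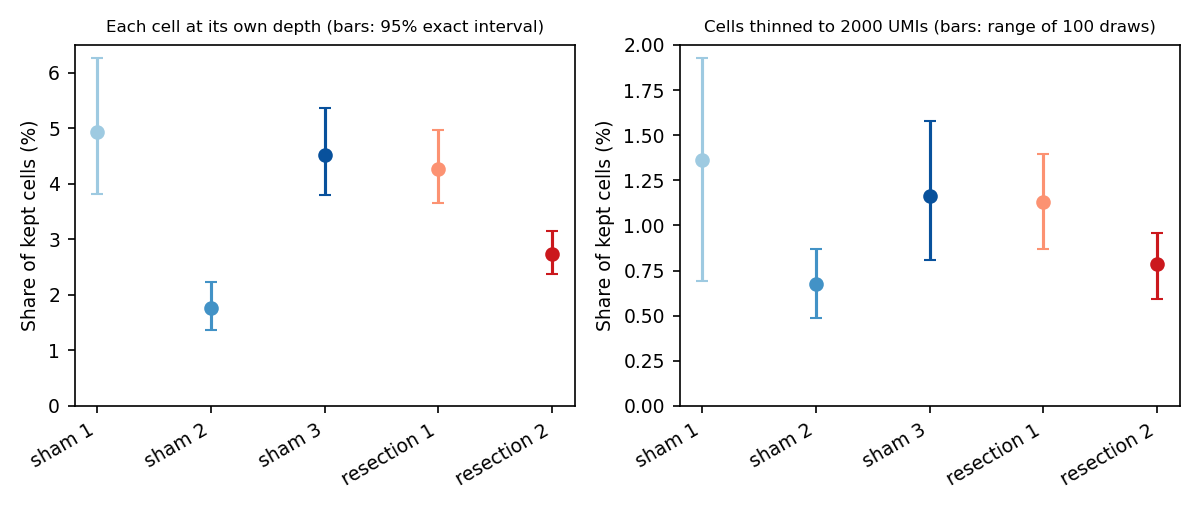
Share of kept cells that met the interferon rule, in percent, for each of the 5 libraries, at full depth (left, bars are 95% exact intervals) and after thinning to 2000 UMIs (right, bars span the 100 draws). Sham 2 is lowest in both panels, at 1.76% and 0.677%, and both resection libraries lie within the range of the sham libraries.

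In the members the libraries fell into a pair of sets that cross the surgery groups: sham 1 resembled resection 1, and sham 2, sham 3 and resection 2 resembled one another. There the median absolute log2 difference between libraries was 0.30 for sham 1 and resection 1, 0.21 to 0.34 within the other set and 0.39 to 0.69 across the sets. In the other cells the values were 0.42, 0.19 to 0.26 and 0.35 to 0.54, and sham 1 and resection 1 did not stand apart as a pair. These values took in genes of lower level than those used for members, so they cannot be set against the values in members. The labels name no batch. Inside the pair the member share differed by -0.67 percentage points between resection and sham, and inside the other set by -0.40. Cell barcodes shared between 2 libraries numbered 6 to 45 per pair, and no barcode belonged to members of 2 libraries.

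Of the 18448 kept cells under the T cell limit, 12643 had no rule gene, 4007 had 1, 1179 had 2, 377 had 3, 158 had 4, 64 had 5, 15 had 6 and 5 had all 7. The numbers fell without a gap. Some rule genes were missed even in most members (Usp18 was detected in 22.9% of them). This tally therefore cannot tell a continuous range from separate groups of cells. The commonest combination was Isg15, Ifit1 and Oasl2 alone, in 178 members (28.8%), and 51 combinations occurred in all. Isg15 was detected in 85.8% to 96.1% of members by library and in 11.5% to 17.8% of other cells, and Ifit1 in 82.8% to 88.3% of members and 5.25% to 9.71% of other cells. Ifit2, at the other end, was detected in 2.47% to 9.30% of members. Levels below are CPM, the count of a gene summed over the cells of a group in a library and scaled to a common UMI total. They count transcripts from their 3′ ends and are not divided by gene length. Isg15 stood at 396 to 626 CPM in members and 21.2 to 38.5 CPM in other cells, and Usp18 at 28.5 to 57.2 CPM against 0.145 to 1.40 CPM.

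Cells just inside and just outside the limit differed by degrees. Interferon effector genes outside the rule, a list of 21 genes found in the files, summed to a median over libraries of 318 CPM in cells with no rule gene, 404 CPM with 1 and 539 CPM with 2. Just inside, cells with 3 rule genes stood at 902 CPM, those with 4 at 1370 CPM and those with 5 or more at 1812 CPM. The guanylate-binding and immunity-related GTPases moved more abruptly, from 14.9 CPM with 2 rule genes to 67.1 CPM with 3 and 176 CPM with 5 or more. Class I antigen presentation genes went from 3582 CPM with no rule gene to 5023 CPM with 2, 5984 CPM with 3 and 7325 CPM with 5 or more. Enterocyte markers climbed from 41028 CPM with no rule gene to 69754 CPM with 2 and 78410 CPM with 3, and were not higher beyond that (75455 CPM with 4 and 76201 CPM with 5 or more).

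**Figure D2:**
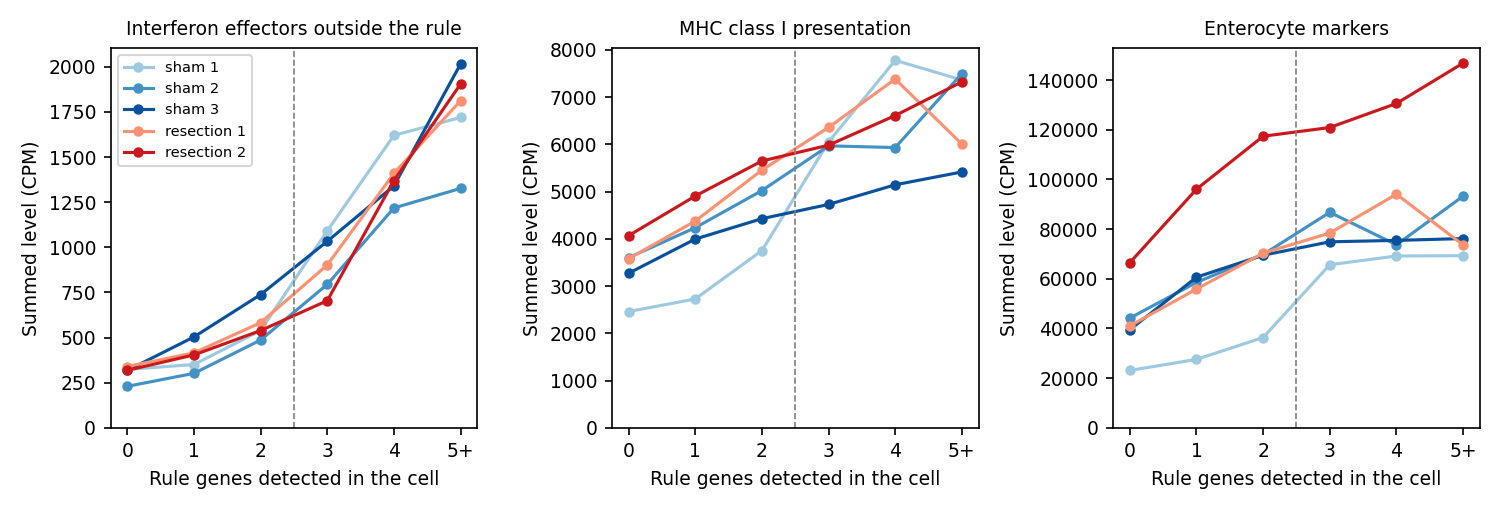
Summed level in CPM of 3 gene lists against the number of rule genes detected in a cell, with 1 line per library and the dashed line marking the limit of 3 genes. The effector list goes from 318 CPM (median of the libraries) with no rule gene to 1812 CPM with 5 or more, and the enterocyte list goes from 41028 CPM to 78410 CPM at 3 genes.

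Epithelial genes were abundant in members. A 10-gene epithelial list (such as Epcam, Krt8 and Vil1) summed to 13571 to 20303 CPM in members and 12125 to 17982 CPM in other cells. All 619 members had at least 3 detected markers of this list and of a 12-gene list of enterocyte genes, but so did 99.98% to 100% and 99.95% to 100% of other cells by library, so these counts do not set members apart. Of the members, 575 also had 3 or more Paneth cell markers (86.8% to 100% by library, and 84.4% to 99.8% of other cells) and 309 had 3 or more goblet cell markers (38.9% to 70.3%, and 38.3% to 68.2% of other cells). None had 3 or more detected markers of myeloid, B cell or stromal and endothelial cells. Tuft cell markers, 3 or more, were found in 4 members (0% to 1.56% by library, and 0.0845% to 0.149% of other cells). Enteroendocrine markers, 3 or more, were found in 6 (0% to 3.10%, and 0.167% to 0.512% of other cells). The 8 tuft markers, all under the level needed for a count of genes, summed to 17.3, 7.15, 44.0, 21.1 and 5.21 CPM in members of sham 1 to 3 and resection 1 and 2, and to 2.56 to 4.0 CPM in other cells. They were thus 1.34-fold to 17.2-fold higher in members, and their part in the interferon genes was not tested. The rule itself held both members and other cells low at its 7 T cell genes. At 6 further T and natural killer cell genes, members held 16.9 to 69.1 CPM and other cells 15.9 to 86.4 CPM (0.679-fold to 1.07-fold), against 1019 to 6174 CPM in the T cell droplets. At the myeloid markers, Lyz2 and 8 others, members held 3.38 to 9.89 CPM in all and other cells 7.15 to 53.8 CPM. The myeloid ratio of members to other cells was 0.184-fold to 1.08-fold. Kept cells with the highest artificial-doublet scores were flagged in each library, at a preset rate of 0.8% per 1000 kept cells. This flagged 720 of all kept cells (3.80%), a number that follows from the setting and is no measured doublet rate. Of the members, 26 (4.20%) were among them. The preset rate differed between libraries with their size, so these pooled shares cannot be set against each other. Flagged cells were kept.

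Members carried the transcripts of absorptive villus cells. Pooled over the 5 libraries, the share of members was 0.206% (10 of 4863 cells) among cells with under 2% of their UMIs from the enterocyte markers. It was 2.21% at 2 to 5%, 4.70% at 5 to 10% and 5.69% (266 of 4677 cells) at 10% or more. The cells with the fewest enterocyte transcripts were the deepest, at a median of 6240 UMIs, and those with the most were the shallowest, at 4258 UMIs. The part of depth in these shares was not tested. After thinning, the shares were 0.00658%, 0.301%, 1.29% and 1.93%. In all 5 libraries the share was lowest under 2%, from 0 of 904 cells in sham 2 to 0.439% in resection 1. The exact 95% interval for 0 of 904 cells reached up to 0.407%. At 10% or more the share was 14.3% in sham 1, on 28 cells, and 4.61% to 7.30% in the other 4 libraries. Only in sham 3 was it lower there than at 5 to 10%, at 6.82% and 7.79% (2.60% and 1.83% after thinning). Of the T cell droplets, 17 of 507 (3.35%, 95% interval 1.97% to 5.31%) also had 3 rule genes, at a median depth of 5676 UMIs, beside 3.27% of members among all kept cells.

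**Figure D3:**
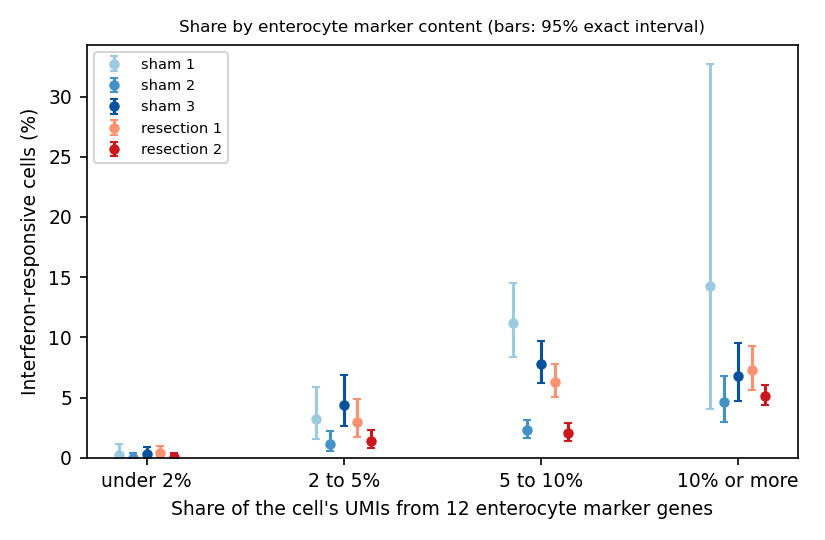
Share of cells that met the interferon rule, in percent with 95% exact intervals, in 4 classes of cells by the share of UMIs from 12 enterocyte marker genes, for each library. Every library is at or below 0.439% in the lowest class and at or above 4.61% in the highest.

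All 12 enterocyte markers were higher in members than in other cells in all 5 libraries, against 20.5% of the 8011 genes tested (those at 5 CPM or more over all cells). Since the rule used this contrast, these counts show what the members are and are no evidence for it. Apoa1, an apolipoprotein of chylomicrons, averaged 22497 CPM in members and 11442 CPM in other cells, and Fabp2, the intestinal fatty acid binding protein, 26396 CPM and 13895 CPM. Of 6 transporters of the middle villus, 5 were higher throughout, among them the peptide transporter Slc15a1 at 397 CPM and 191 CPM. Of 4 tested genes of the villus tip, 3 were higher throughout: the keratin Krt20 averaged 1141 CPM in members and 660 CPM in other cells, the factor Klf4 254 CPM and 128 CPM, and the factor Creb3l3 268 CPM and 141 CPM. Of 8 genes of the lower villus, 0 were higher in all 5 libraries and 2 (Gsdmc2 and Gsdmc4) were lower in all 5, and the list summed to 0.90-fold to 1.51-fold. Markers of the crypt were lower in members: 9 of 10 cycling genes and 3 of 4 tested stem cell genes were lower in all 5 libraries, against 16.0% of genes tested. Mki67 averaged 7.80 CPM in members and 28.1 CPM in other cells, and the stem cell gene Smoc2 1.54 CPM and 11.3 CPM. Between cells with at least 5% enterocyte UMIs, the cycling list was 0.632-fold to 1.33-fold and the stem cell list 0.765-fold to 1.15-fold. There the middle villus list was 0.964-fold to 1.17-fold, the tip list 1.08-fold to 1.39-fold and the lower villus list 0.736-fold to 1.01-fold.

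The lowest genes in members were products of Paneth cells, the antimicrobial secretory cells of the crypt base. They were Mptx2, Defa5, Defa23, Gm15315, Defa3 and AY761184, with a median log2 ratio of members to other cells of -4.44 to -3.59. The defensin genes are near-identical copies, so the counts of single members of the family are uncertain. Summed over 8 Paneth markers, members held 17780, 13747, 2211, 2836 and 15571 CPM in sham 1 to 3 and resection 1 and 2, and other cells 171738, 63132, 25357, 71437 and 22490 CPM. Members were lowest in every library, by the least in resection 2, where the ratio was 0.692, and by the most in resection 1, where it was 0.0397. Among cells with at least 5% enterocyte UMIs, on both sides, the ratios ran from 0.491 to 1.03 and the single-gene log2 ratios from -0.95 to -0.23. The gap at these genes was thus much smaller between cells rich in enterocyte transcripts.

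Genes outside the rule were ranked by ratio among those at 50 CPM or more in members and higher in members in all 5 libraries. The leading genes included Apol9a, Ifit1bl1, Ddx60, Rtp4, Rnf213, Zbp1, Oasl1, Trim12a, Bst2, Cmpk2, Clca4a, Irf7, Parp14 and Dtx3l. Apol9a, an apolipoprotein L gene, stood at 56.9, 57.2, 24.6, 70.2 and 41.7 CPM in members of sham 1 to 3 and resection 1 and 2, and at 6.40, 4.18, 3.09, 8.69 and 9.13 CPM in other cells. It has a near-identical copy, Apol9b, so its own count is uncertain. Ddx60, a helicase of RNA sensing whose promoter is printed above, stood at 146, 71.5, 44.6, 152 and 87.8 CPM in members and at 12.7, 11.7, 8.07, 19.9 and 17.9 CPM in other cells. For both genes the lowest member value was above the highest value in other cells.

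Ifit1bl1, a relative of Ifit1, differed widely between libraries. It stood at 247, 245, 516, 133 and 227 CPM in members and at 33.2, 22.8, 122, 19.9 and 57.5 CPM in other cells, and was highest in sham 3 and lowest in resection 1 on both sides. Its sequence is close to that of Ifit1, so reads may be split between them. Clca4a ranged more widely in members, from 25.2 CPM in sham 3 to 155 CPM in resection 1. Irf7, the factor that amplifies interferon production, stood at 378, 207, 109, 195 and 147 CPM in members and at 65.5, 54.2, 34.7, 67.0 and 65.4 CPM in other cells. Bst2, which encodes tetherin, a protein that holds budding virus at the membrane, stood at 76.6, 40.5, 46.6, 61.7 and 42.4 CPM in members and at 10.3 to 16.5 CPM in other cells.

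The leading genes also lay apart between enterocytes. Among cells with at least 5% enterocyte UMIs (542 members and 10013 other cells), the median log2 ratio was 2.40 for Apol9a, 2.39 for Bst2, 2.20 for Ddx60 and 1.06 for Irf7. Each of these 14 was higher in members in all 5 libraries there, except Clca4a, a calcium-activated chloride channel regulator, which was higher in 4. Of the 10 leading genes with a promoter in the RefSeq table, 5 held the response element motif (Apol9a, Ifit1bl1, Ddx60, Trim12a and Bst2). Of all genes with a promoter there, 3.99% held it. Of the 6 lowest genes 2 had a promoter there and neither held it.

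**Figure D4:**
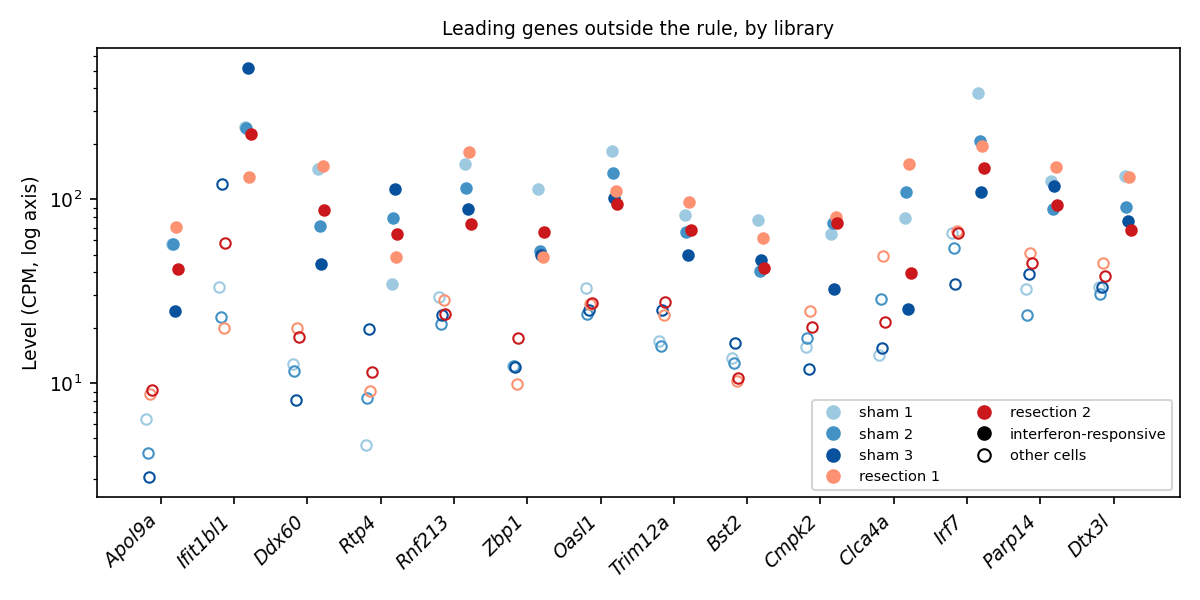
Level in CPM, on a log axis, of 14 leading genes outside the rule in interferon-responsive cells (filled) and in other cells (open), with 1 point per library. The filled point lies above the open one in each library because the genes were chosen that way. For Apol9a the ratio was 4.57-fold to 13.7-fold.

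No transcript of an interferon was seen in members. The summed count of 9 interferon genes (Ifnl2, Ifnl3, Ifnb1, Ifna1, Ifna2, Ifna4, Ifne, Ifnk and Ifng) was 0 in all 5 libraries, where 3 UMIs would be 1.94 to 7.42 CPM. Other cells had 3 UMIs of Ifng and 1 of Ifnk. In the T cell droplets the same genes summed to 0 to 5.83 CPM by library, with a median of 3.54 CPM. In members their transcripts were not detectable at this depth.

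Receptor genes were expressed in members and in other cells alike. Ifngr1 averaged 210 CPM in members and 162 CPM in other cells, Ifngr2 119 CPM and 92.0 CPM, Il10rb 48.3 CPM and 38.1 CPM, and Ifnlr1, the specific chain of the type III receptor, 8.94 CPM and 7.24 CPM. Ifnar1 averaged 11.1 CPM and 12.3 CPM. Of the 5 tested, 3 were higher in members in all 5 libraries, against 20.5% of all genes tested. The sum of the list was 1.13-fold to 1.61-fold higher. Between cells with at least 5% enterocyte UMIs it was 0.931-fold to 1.02-fold, so receptor levels were close once enterocytes were set against enterocytes.

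Of 10 tested signalling genes, 8 were higher in members in all 5 libraries, against 20.5% of all genes tested. The signalling list summed to 1.57-fold to 2.81-fold higher in members, and to 1.35-fold to 1.73-fold between cells with at least 5% enterocyte UMIs. Stat2 and Irf9, transcription factors of the pathway, averaged 41.2 and 18.6 CPM in members and 10.1 and 10.2 CPM in other cells, and each was higher in all 5 libraries. Jak1 (60.1 CPM and 37.9 CPM) and Jak2 (73.7 CPM and 49.3 CPM) were also higher in each library. Tyk2 and Irf3 were not. Tyk2 averaged 10.1 CPM in members and 8.63 CPM in other cells, and Irf3, the factor that is activated by phosphorylation after sensing, 36.2 CPM and 36.9 CPM, and each was higher in 3 libraries. Among restraining genes, Trim30a averaged 47.5 CPM in members and 3.43 CPM in other cells and was higher in all 5 libraries, while Ptpn2, a phosphatase of the pathway, averaged 17.8 CPM and 17.9 CPM.

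Of 16 tested antiviral effectors outside the rule, 13 were higher in members in all 5 libraries (against 20.5% of all genes tested). Their summed level was 1360, 993, 1311, 1183 and 939 CPM in members of sham 1 to 3 and resection 1 and 2, and 353, 256, 407, 375 and 358 CPM in other cells, a ratio of 2.62-fold to 3.89-fold. Oas3, which makes the second messenger of RNase L, averaged 46.2 CPM in members and 4.49 CPM in other cells, and Oas1a 33.9 CPM and 6.59 CPM. Ifi44 averaged 23.4 CPM and 1.23 CPM, below the level needed for the count. The exceptions were Eif2ak2, the kinase PKR, which was higher in 4 libraries, Ifitm3, at 4.49 CPM in members and 5.26 CPM in other cells, and Apobec3, which was lower in members in all 5, at 2.20 CPM and 5.35 CPM. Ifitm3 and Apobec3 thus stood apart from the other effectors, at low levels.

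Nucleic acid sensors followed the effectors. Of 5 tested, 4 were higher in members in all 5 libraries, against 20.5% of all genes tested. The 4 were Ddx58 (RIG-I) at 43.2 CPM in members and 16.5 CPM in other cells, Ifih1 (MDA5) at 68.5 CPM and 28.1 CPM, Zbp1 at 66.1 CPM and 12.9 CPM and Tlr3 at 26.4 CPM and 13.9 CPM. Mavs, the adaptor of Ddx58 and Ifih1, averaged 15.8 CPM and 15.03 CPM. The enzymes that attach Isg15 to proteins, Uba7, Ube2l6 and Herc6, were higher in all 5 libraries, Herc6 at 33.8 CPM in members and 4.17 CPM in other cells. So were all 5 tested genes of the Parp and Dtx3l group, which modify proteins with ADP-ribose and ubiquitin, with Parp14 at 115 CPM and 38.2 CPM.

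The guanylate-binding and immunity-related GTPases, genes of type II and type I interferon that act on intracellular pathogens, were represented by few members of the family. Igtp averaged 31.7 CPM in members and 2.56 CPM in other cells, Irgm1 26.1 CPM and 6.16 CPM, and Irgm2 8.69 CPM and 1.71 CPM. Igtp was detected in 9.38%, 29.0%, 15.5%, 18.5% and 13.3% of members of sham 1 to 3 and resection 1 and 2, and in 0.976% to 2.87% of other cells. Of the 15 genes of this list, 7 (Gbp4, Gbp5, Gbp6, Gbp10, Iigp1, Tgtp1 and Tgtp2) had no UMI in any member. The summed ratio was 5.23-fold to 7.37-fold, and 3.85-fold to 8.16-fold between cells with at least 5% enterocyte UMIs.

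Of 13 tested genes of class I antigen presentation, 10 were higher in members in all 5 libraries (against 20.5% of all genes tested). H2-K1 stood at 2509, 1017, 794, 2098 and 1211 CPM in members of sham 1 to 3 and resection 1 and 2, and at 934, 600, 472, 1196 and 769 CPM in other cells. The peptide transporter Tap1 averaged 50.6 CPM in members and 16.4 CPM in other cells, the immunoproteasome subunit Psmb8 207 CPM and 98.6 CPM, and B2m, the light chain, 2071 CPM and 1180 CPM. Erap1, which trims peptides, was the exception that was lower in all 5, at 20.04 CPM and 22.2 CPM. The list summed to 1.39-fold to 2.56-fold higher in members, and to 1.13-fold to 1.40-fold between cells with at least 5% enterocyte UMIs. The class I difference was thus smaller between enterocytes, while the effector list was still 2.33-fold to 3.15-fold higher there.

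Class II presentation genes were higher in members and differed widely between libraries. Of 6 tested, 4 were higher in members in all 5 libraries (against 20.5% of all genes tested). The list summed to 1258, 1103, 93.8, 282 and 426 CPM in members of sham 1 to 3 and resection 1 and 2, and to 415, 503, 77.9, 202 and 331 CPM in other cells, 1.20-fold to 3.03-fold higher in members. Sham 3 was the lowest library on both sides, far below the other sham libraries. Cd74, the invariant chain, stood at 616, 626, 47.9, 126 and 249 CPM in members. Between cells with at least 5% enterocyte UMIs the list was 0.861-fold to 1.62-fold, which spans both directions. Of 16 tested further interferon-stimulated genes, 15 were higher in members in all 5 libraries, Rnf213 at 123 CPM and 25.2 CPM, Xaf1 at 42.4 CPM and 8.22 CPM and the abundant Ifi27l2b at 1145 CPM and 570 CPM. Over 10 lists of the pathway, 63 of 78 tested genes were higher in all 5 libraries and 2 lower (against 20.5% and 16.0% of all genes tested). Their median log2 ratio of mean levels was 1.06, where the median of all tested genes was 0.05. The rule genes, class II and a list of interferon chemokine genes were not among these 10 lists. Of the chemokine genes, 0 of 2 tested were higher in members in all 5 libraries, and the list summed to 0.930-fold to 2.20-fold.

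Immediate-early genes, which also rise during tissue dissociation, were somewhat higher in members. Of 10 stress genes 6 were higher in all 5 libraries and 2 lower (against 20.5% and 16.0% of all genes tested). Fos was among the higher, at 738 CPM in members and 523 CPM in other cells, and the heat shock genes Hspa1a and Hspa1b were lower in all 5. The list was 1.20-fold to 1.53-fold higher, and 0.95-fold to 1.19-fold between cells with at least 5% enterocyte UMIs. Its part in the interferon genes was not tested. The median mitochondrial share was 7.74% to 13.8% in members and 7.19% to 13.3% in other cells by library.

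The response to resection inside the members was tested on counts summed over the members of each library, which held 404490, 419805, 1545624, 1182226 and 1343534 UMIs. By edgeR's quasi-likelihood test with Benjamini-Hochberg adjustment, 0 of 6991 genes were called (0%) at an adjusted p under 0.05, and 220 (3.15%) had an unadjusted p under 0.05. DESeq2 called 8 genes, 7 higher (Apoc3, Cyp2b10, Cyp3a11, Ephx2, Fabp1, Slc2a2 and Slc5a12) and 1 lower (Cldn4). In the other cells, 0 of 11724 genes were called by edgeR, 328 (2.80%) were under 0.05 unadjusted and DESeq2 called 37. With the 2 sets of libraries as a term, edgeR called 4 genes in members, all higher in resection (Cyp3a11, Fabp1, Slc2a2 and Slc5a12). Over 12 alternatives, the edgeR or DESeq2 adjusted p ranged from 4.29e-11 to 0.474 for Slc2a2 and from 2.80e-33 to 0.673 for Fabp1. Both lowest values came from edgeR with the replicate number as a block, and the labels state no such pairing. The lowest values otherwise were those of DESeq2, 6.80e-05 for Slc2a2 and 7.74e-06 for Fabp1.

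No interferon gene outside the rule passed the test for resection in members. Of 86 tested, 0 passed by edgeR, 4 had an unadjusted p under 0.05, 39 had estimates above 0 and 47 below. Their median log2 fold change was -0.06, beside -0.01 over all genes tested. Their summed level in members was 13892, 11729 and 10545 CPM in sham and 12422 and 11363 CPM in resection, so the groups overlapped. For the effector list alone the values were 1360, 993 and 1311 CPM in sham and 1183 and 939 CPM in resection. Both resection libraries lay above the sham range for 7 of the 86 genes and below it for 2, where 7.88% and 5.36% of all genes tested did so. The 6 tested class II genes all had estimates below 0 (median -1.04) and 0 passed, with sham 3 below both resection libraries. In the other cells, 0 of 100 tested interferon genes passed, with a median of -0.03.

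None of the 10 genes named by rule for resection inside members passed by edgeR, the main test. DESeq2 called Fabp1, Ephx2, Apoc3 and Cldn4 among them (DESeq2 adjusted p = 7.74e-06, 0.038, 0.0237 and 0.0129). Fabp1, the liver-type fatty acid binding protein, stood at 351, 629 and 660 CPM in sham and 4394 and 2868 CPM in resection, which is 2.66 ± 0.44 on the log2 scale (SE, adjusted p = 0.159 by edgeR). Apoc3, an apolipoprotein, stood at 435, 662 and 200 CPM in sham and 1769 and 2035 CPM in resection (log2 2.13 ± 0.49, edgeR adjusted p = 0.536). The groups did not overlap for either gene, but the rule that named the 10 genes required this, so it adds no evidence. Of all genes tested in members, 7.88% were higher in each resection library than in any sham library. Ephx2, an epoxide hydrolase, Bst1, an ectoenzyme of NAD breakdown, and Lct, which encodes lactase, had log2 fold changes of 2.06, 1.54 and 2.27. By edgeR they missed the threshold too. Lct stood at 148, 117 and 32.3 CPM in sham and 667 and 283 CPM in resection.

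Among genes with lower estimates, the tight junction gene Cldn4 stood at 126, 50.02 and 93.2 CPM in sham and 10.2 and 21.6 CPM in resection (log2 -2.45 ± 0.49, edgeR adjusted p = 0.374). Cldn23 stood at 109, 102 and 149 CPM in sham and 53.3 and 47.6 CPM in resection. Adm, which encodes the peptide adrenomedullin, stood at 61.8, 26.2 and 184 CPM and at 10.2 and 24.6 CPM. 1700011H14Rik and Ccdc71l had log2 fold changes of -1.48 and -1.36. These 5 genes did not pass by edgeR, with edgeR adjusted p from 0.374 to 0.997, while DESeq2 called Cldn4. The glucose transporter gene Slc2a2, named after its values were seen, came nearest, at 12.4, 7.15 and 3.88 CPM in sham and 135 and 55.1 CPM in resection (log2 3.78 ± 0.51, edgeR adjusted p = 0.0703). Fabp6, the ileal bile acid binding protein, also named afterwards, stood at 30332, 22377 and 40529 CPM in sham and 8307 and 17592 CPM in resection (log2 -1.23 ± 0.52). Cyp3a11 and Cyp2b10, cytochromes of drug metabolism that lay under 50 CPM and were named afterwards, had log2 fold changes of 4.53 ± 0.67 and 3.91 ± 0.71 (edgeR adjusted p = 0.0792 and 0.25).

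Estimates in other cells had the same sign as those in members for the 10 genes and Slc2a2, Cyp3a11, Cyp2b10 and Fabp6. The log2 fold change in other cells was 2.90 for Fabp1, 2.55 for Apoc3, 3.07 for Lct, -2.14 for Cldn4 and 4.08 for Slc2a2. The difference between members and other cells, from an interaction term with the library as a block, was -0.32 ± 0.23 (SE) for Fabp1 and -0.71 ± 0.19 for Lct (edgeR adjusted p = 0.998 and 0.537). The unadjusted edgeR p of the difference was under 0.05 for Lct, where the estimate was smaller in members, and for Cldn23 (difference of -0.51 ± 0.21) and Ccdc71l (-0.43 ± 0.21), where it was further below 0 in members. For Slc2a2 it was -0.41 ± 0.43 (edgeR adjusted p = 0.998).

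The difference in response passed for 2 of 10550 genes (0.019%), and 438 (4.15%) had an unadjusted p under 0.05. Fgf15, the hormone that ileal enterocytes release in response to bile acids, stood at 59.3, 45.3 and 9.06 CPM in members of sham and 38.9 and 30.5 CPM in those of resection, which overlapped. In other cells it stood at 19.5, 14.7 and 6.09 CPM in sham and 64.0 and 35.6 CPM in resection. The response there did not pass on its own (log2 1.65 ± 0.52, edgeR adjusted p = 0.9998). The difference of the responses was -1.58 ± 0.30 (SE, edgeR adjusted p = 0.0105). It rested on 24, 19, 14, 46 and 41 UMIs in members. Bglap3, an osteocalcin-related gene with near-identical neighbours whose counts may be split, had a difference of 4.09 ± 0.79 (edgeR adjusted p = 0.0105). It rested on 0, 2 and 0 UMIs in members of sham and 59 and 16 in those of resection, and 28 of the 59 came from 1 cell. DESeq2 called neither gene, and the number called was 0 without sham 2, 0 without sham 3, 6 without sham 1, 34 without resection 1 and 26 without resection 2. Without resection 1 neither Fgf15 nor Bglap3 was called, and Paneth cell genes were called in opposite directions by the library left out. The difference was 3.31 without resection 1 and -1.58 without resection 2 for AY761184, and 3.42 and -1.64 for Defa5.

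**Figure D5:**
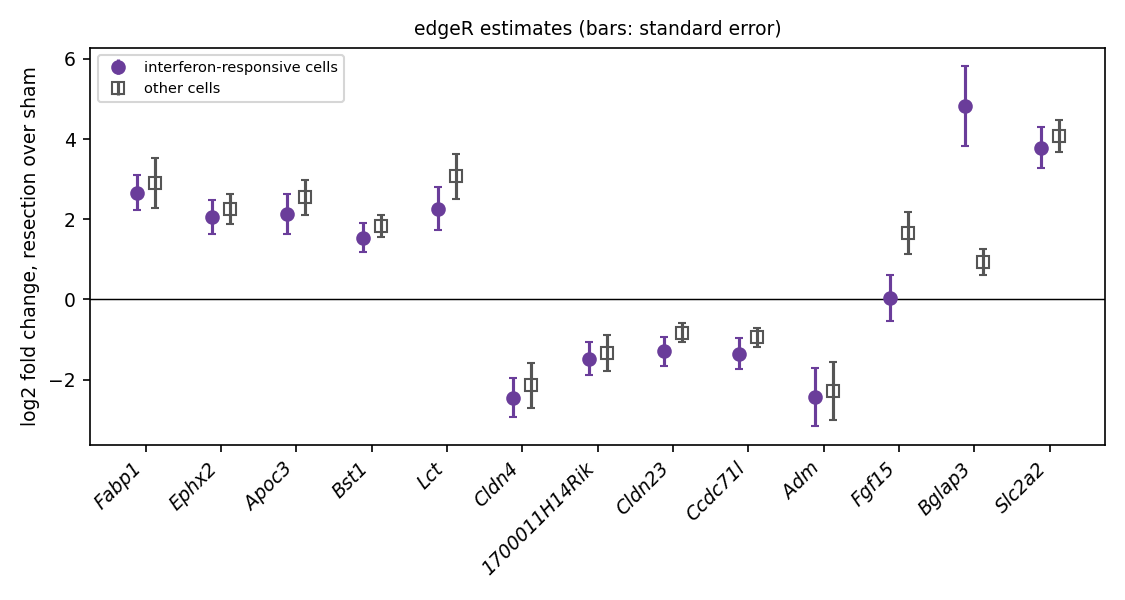
Log2 fold change of resection over sham with its standard error, by edgeR, in interferon-responsive cells (filled) and in other cells (open squares), for the 10 genes named by rule and for Fgf15, Bglap3 and Slc2a2. Both estimates have the same sign for each of the 10 genes, for Lct 2.27 in members and 3.07 in other cells, while Fgf15 is at 0.04 in members and 1.65 in other cells, and Bglap3 at 4.83 and 0.92.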

How the data were processed

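The authors deposited a matrix of raw UMI counts for each of 5 libraries (27998 genes by cells), with no normalization, as the whole-number values show. Per the labels, the libraries were 10x Chromium 3′ libraries and the matrices came from Cell Ranger, its version given only with a question mark. The submitters' processing notes name mm10 and GRCm38. The annotation is not given in the sources used here. The total count per library was 11749028 to 41281731 UMIs.

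A cell was kept from 500 detected genes up and to a mitochondrial share of 20%, doublets included. For 56 symbols with several rows the lowest identifier was used. Members, gene lists and tests were chosen with earlier results of these data known. The genes named besides the rule genes were the 15 highest and 6 lowest ratios at 50 CPM or more with 1 direction in all libraries, and for resection the 5 higher and 5 lower genes with the lowest p at 50 CPM or more whose resection libraries both lay beyond the sham libraries. Of the 15 highest, 1 is not reported here. Mx2 and Cxcl11 were not used here.

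Counts were summed over members, and over other cells, in each library and tested with edgeR 4.0.16 in R 4.3.3 (quasi-likelihood, TMM factors, filterByExpr, Benjamini-Hochberg adjustment, threshold 0.05), and with DESeq2 1.42.0 as an alternative. The test was also run on simulated counts with the same spread for every gene and no sets of libraries. That run does not show the power of the test in these libraries. Ratios of CPM used a floor of 3 counts per library, and a mean ratio is that of the means over libraries. Shares were compared by exact permutation over libraries. Counts were handled with Python 3.11.15 and scanpy 1.11.5. Alternatives changed the rule, the filters, the tool, the scaling and the libraries included.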

Additional observations from a re-analysis of the deposited data

Results flagged for a closer look

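Both results below were singled out because the response to resection differed between interferon-responsive cells and other cells by a test of the difference itself. For Fgf15 the log2 difference was -1.58, from a log2 fold change of 0.04 in members and 1.65 in other cells, neither called by edgeR. It ranged from -1.86 to -1.27 over 8 alternatives, and edgeR's adjusted p ranged from 0.000189 to 0.362 over 7 of them, of which 4 called it. For Bglap3 the log2 difference was 4.09, resting on 59 and 16 UMIs in the resection members. It ranged from 2.63 to 10.44, and edgeR's adjusted p ranged from 3.69e-06 to 0.941, with 4 of 7 calling it. Neither was called without sham 2, without sham 3 or without resection 1, or by DESeq2 (adjusted p = 0.400 for Fgf15 and 1 for Bglap3).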

How the results depend on the processing

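The member share differed by -0.24 percentage points between resection and sham. It turned to 0.41 with a mitochondrial limit of 10% and to 0.28 with no T cell gene allowed, and ranged from -1.23 to 0.53 without single libraries (0.36 without sham 1, 0.16 without sham 3). It was -0.46 with 4 rule genes needed and -1.78 among cells with at least 5% enterocyte UMIs (7.06% in sham and 5.28% in resection, exact permutation p = 0.7). After thinning it ranged from -0.30 to 0.065 without single libraries (0.04 without sham 1). The p never passed, and the design allowed none under 0.1. Between cells with at least 5% enterocyte UMIs, chosen after seeing the data, the mean log2 ratios of members to other cells moved to 1.36 for effectors, 0.32 for class I, 0.19 for class II, 0.59 for other interferon genes, 0.10 for enterocyte markers and 0.10 for stress genes.

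Genes called for resection in members numbered 0, but 2 with 4 rule genes needed, 8 with DESeq2, 4 with the library set as a term and 0 to 1 without single libraries. In other cells they numbered 0, but 37 with DESeq2, 28 with no filter on low counts, 1 with the set term and 0 to 2 without single libraries. With the replicate number as a block (2 shared numbers, for which the labels state no pairing), 111 genes were called in members (43 higher, 68 lower) and 98 in other cells. The difference of responses passed for 2 genes, 0 with DESeq2, 11 with no filter and 0 to 34 without single libraries. The cause was not tested. The median log2 fold change in members ranged from -1.69 to -0.40 for class II and from -0.14 to 0.08 for the interferon genes. Cxcl10, at 0.22 in members, ranged from -0.75 (without resection 2) to 1.75 without single libraries, with -0.18 without sham 1 and -0.01 without sham 2. With 64 to 195 members per library, low genes are limited by counting, and UMI sums under 3 give no ratio.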
